A study of Homo sapiens with 2 samples.

Results

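The genes PML and RARA are the partners of the fusion that drives acute promyelocytic leukemia, and the peaks described here are those of a PML-RARA antibody at the partners themselves. Members were all listed peaks sharing at least 1 base with either gene body, or with the 50 kb on each side of it, on the build hg19. PML was taken as chromosome 15, 74287014 to 74340155, and RARA as chromosome 17, 38465423 to 38513895, both transcribed from the plus strand. This gave 15 peaks of the 20085 in the list, 2 at PML and 13 at RARA. The cells were NB4, an established human acute promyelocytic leukemia line that carries the fusion, grown in serum-containing medium without a stated treatment. The assay was CUT&Tag, in which an antibody tethers a transposase that cuts and tags the DNA beside the bound protein. There was 1 group of 2 replicates, combined by the authors in 1 peak list. No control antibody, second condition or value per replicate was analysed here, and the sequencing depth is unknown, so the values below are descriptions without a test or a replicate spread.

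PML encodes a RING-finger protein of the TRIM family that builds the PML nuclear bodies, and its gene is induced by interferon. RARA encodes retinoic acid receptor alpha, a nuclear receptor that binds DNA together with a retinoid X receptor, recruits co-repressors without its ligand and activates transcription with it. In the fusion, the front part of PML is joined to the DNA-binding and ligand-binding parts of RARA, so the fused gene is read from the PML promoter, and all-trans retinoic acid or arsenic trioxide leads to loss of the fusion protein. RARA is transcribed from more than 1 promoter. The isoform RARA2 starts inside the gene, and its promoter is a known target of retinoic acid through a retinoic acid response element. Reads from the intact and the rearranged copies of either gene map to the same reference positions, and the labels do not say which part of the fusion the antibody recognizes. Which copy or protein a peak comes from was not tested.

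RARA has 3 promoter windows in RefSeq, shown here so that the starts of the gene can be compared by sequence. Each spans 250 bases before to 50 bases after an annotated start on GRCh38.p14, plus strand: window 1 is chr17:40308930-40309229, window 2 chr17:40317995-40318294 and window 3 chr17:40341916-40342215. Capitals mark matches on either strand to the retinoid receptor half-sites AGGTCA and GGGTCA, to the GC box GGGCGG and to CCAAT.
RARA window 1: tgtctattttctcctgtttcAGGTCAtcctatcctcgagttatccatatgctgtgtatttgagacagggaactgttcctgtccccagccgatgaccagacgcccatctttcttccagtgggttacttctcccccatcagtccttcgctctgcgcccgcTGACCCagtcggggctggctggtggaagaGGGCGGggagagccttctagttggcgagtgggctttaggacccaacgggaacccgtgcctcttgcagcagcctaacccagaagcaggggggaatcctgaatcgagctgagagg
RARA window 2: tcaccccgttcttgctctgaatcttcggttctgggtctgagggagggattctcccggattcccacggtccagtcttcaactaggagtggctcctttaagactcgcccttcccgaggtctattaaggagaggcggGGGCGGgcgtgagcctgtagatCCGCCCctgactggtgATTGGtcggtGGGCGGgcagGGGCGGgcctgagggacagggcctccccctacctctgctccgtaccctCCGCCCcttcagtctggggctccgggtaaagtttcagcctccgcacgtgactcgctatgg
RARA window 3: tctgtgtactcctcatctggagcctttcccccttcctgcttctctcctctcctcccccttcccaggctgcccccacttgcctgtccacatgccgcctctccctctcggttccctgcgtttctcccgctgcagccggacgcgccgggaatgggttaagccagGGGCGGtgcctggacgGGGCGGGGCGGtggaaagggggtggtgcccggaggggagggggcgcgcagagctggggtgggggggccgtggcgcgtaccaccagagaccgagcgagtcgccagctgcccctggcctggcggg

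The windows differ in their base content. Window 1 was the only 1 of the 3 with retinoid receptor half-sites, 1 AGGTCA and 1 GGGTCA, motifs found in 13.8% and 14.1% of the 34943 promoter windows in the table. Windows 2 and 3 held 5 and 3 matches to GGGCGG, of which 2 in window 3 overlap, and window 1 held 1, against at least 1 match in 44.9% of all windows. Window 2 also held the CCAAT box, as 34.6% of all windows do. GC content was 57.0%, 63.0% and 71.0% in windows 1, 2 and 3, against a median of 58.7%, and CpG dinucleotides numbered 12, 19 and 22, against a median of 14. The half-sites AGTTCA and GGTTCA, found in 10.5% and 8.63% of all windows, had no match in any of the 3. Direct repeats of these 4 half-sites with spacers of 1, 2 or 5 bases had none either, and such repeats occurred in 0.132%, 0.0372% and 0.0887% of all windows. GAGGAA, the core of sites for the myeloid ETS factor PU.1 (27.9% of all windows), and TATAAA (11.6%) also had none. The RARA2 start used here lies 32217 bases after the gene start on hg19. Whether any of the 3 windows covers its promoter was not tested, so the missing repeats say nothing about its response element. On GRCh38 the starts of windows 2 and 3 lie 9065 and 32986 bases after that of window 1. These distances were not carried over to hg19, so no peak is assigned to a window. They are only set beside the peak distances further below.

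The listed peaks at PML, within its gene body and the 50 kb on each side, were a short pair at and just before the gene start. The peak over the start lay at chromosome 15, 74286870 to 74287171, from 144 bases before the start to 157 bases after it. It was 301 bp long, had a total signal of 3953 and reached a maximum of 26. Total signal is the authors' coverage summed over the bases of a peak, and the maximum is its highest coverage. The second peak, at 74284483 to 74284943, ended 2071 bases before the start and was 460 bp long, with a total of 2880 and a maximum of 13. STOML1, which encodes a stomatin-like protein, is the protein-coding gene before PML in RefSeq order. Whether either peak belongs to STOML1 or to PML was not tested.

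The PML start peak was short and, for its length, high. Only 0.393% of listed peaks were as short or shorter, and the median length was 893 bp. Its mean signal of 13.1 per base was at or above that of 81.3% of the list, where the median was 7.53. Its maximum of 26 lay above the median of 22, while its total of 3953 lay below the median of 6479, at a level that 27.7% of peaks do not exceed. The peak before the gene was low by each measure. Its total was at or above that of 8.30% of peaks and its mean of 6.26 per base at or above that of 35.9%, and the lowest total in the list was 2577.

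Beyond its first 157 bases the PML gene body held no listed peak, so 0.295% of its 53141 bases lay in peaks. The next peak downstream, at 74415504 to 74416077, began 75349 bases past the gene end with a total of 3098. The stretch of 128333 bases between it and the start peak exceeded the median distance between neighbouring peaks, 14768 bases, and 15.5% of the 20049 such distances were as long or longer. Upstream, the nearest peak outside the 50 kb was at 74227867 to 74228410, again with a total of 2880. Before that one came 1150920 bases without a peak, a length that 2.68% of distances reached. A stretch without a listed peak is one in which nothing passed the authors' threshold, which is not given in the sources used here, and is no measurement of absent signal.

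RARA, in contrast, carried peaks along most of its body. Of its 13 peaks, 12 lay inside the gene and 1 before it, and 37.2% of the 48472 bases of the gene body lay in peaks, against 0.779% of chromosomes 1 to 22 and X. The summed signal was 188344 over all 13 peaks and 166829 over the 12 in the gene. At PML the sum was 6833 over both peaks.

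**Figure D1:**
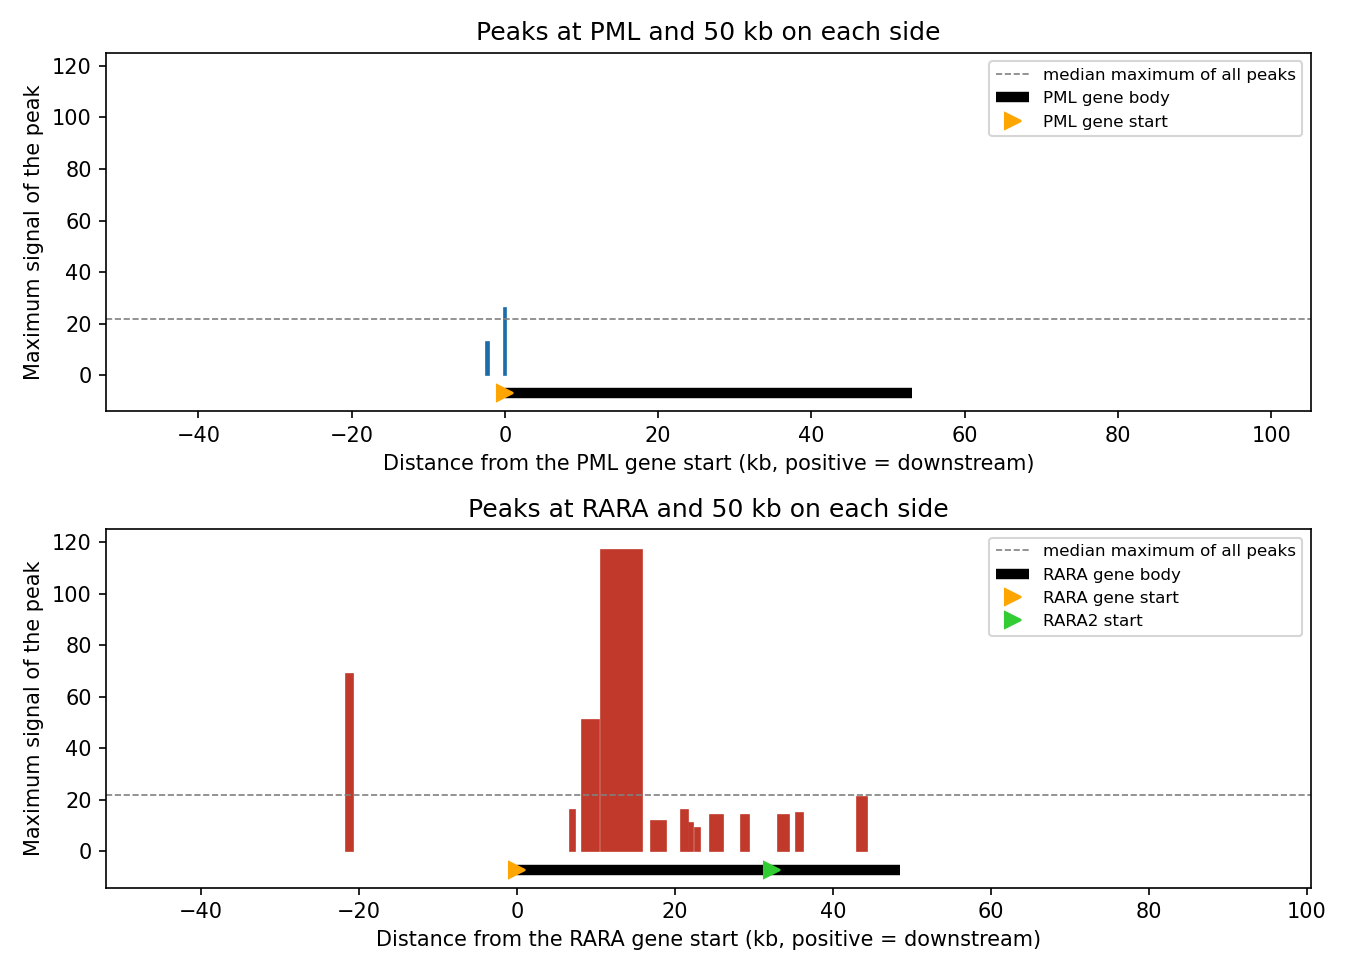
Peaks at PML (top, blue) and at RARA (bottom, red), placed by distance from the gene start in kb (horizontal axis). Each bar is 1 peak, as wide as the peak is long and as high as its maximum signal; the black line is the gene body, triangles mark starts and the dashed line the median maximum of the list, 22. PML has a peak of 26 over its start and one of 13 before it, while the bars of RARA run through the gene and reach 117.

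The strongest signal at RARA lay in the front part of the gene, at 27.3% of its length from the start. The peak at chromosome 17, 38476060 to 38481245, began 10637 and ended 15822 bases after the gene start. It was 5185 bp long, and 98.9% of listed peaks were as short or shorter. Its total of 75785 ranked 438 of 20085 and its maximum of 117 ranked 746. Immediately before it, 328 bases away, the peak at 38473665 to 38475732 had a total of 28735, rank 2102, and a maximum of 51 over 2067 bp. This pair held 62.7% of the signal in the gene body, and the stronger member alone 45.4%. By total signal the stronger was 2.64 times the other and 11.3 times the median of the 12 gene body peaks.

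The other 10 gene body peaks were low. Their maxima ran from 9 to 21 with a median of 14.0, and 0 of the 10 exceeded the list median of 22. Their totals ran from 3100 to 9768 with a median of 6382, close to the list median of 6479, and 5 of the 10 lay above it. They were low but not short, with a median length of 974.5 bp. The first of them, at 38472055 to 38472760, began 6632 bases after the gene start and had a total of 4676 and a maximum of 16.

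Past the strong pair came a series of shallow peaks toward the RARA2 start. The peak at 38482406 to 38484241 was 1835 bp long with a maximum of 12 and a total of 9768. Then followed 3 peaks separated by 117 and 221 bases, at 38486183 to 38487050, 38487167 to 38487732 and 38487953 to 38488628, with totals of 7978, 3524 and 3100. The last of these had the lowest maximum of all 15 members, 9, which only 5.02% of listed peaks did not exceed. The peaks at 38489897 to 38491443 and 38493812 to 38494804 had totals of 6788 and 5686 and a maximum of 14 each. Gaps between neighbours in the gene body ranged from 117 to 6763 bases with a median of 1161. With peaks no more than 1 kb apart merged, the 13 at RARA became 8.

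Neither of the 2 starts of RARA taken on hg19 lay under a peak. The nearest peak to the gene start was the one 6632 bases inside the gene, and no peak fell within 5 kb of that start. The RARA2 start, taken at 38497640, lay 865 bases before the peak at 38498505 to 38499831, which had a total of 6572, a maximum of 14 and a length of 1326 bp. At its total, 50.7% of peaks are as low or lower, and at its mean of 4.96 per base only 17.8%. On the other side, the nearest peak ended 2836 bases before the RARA2 start. The position of RARA2 is approximate, so the 865 bases are too. On GRCh38 the start of window 2 lies 9065 bases after that of the first window. In hg19 the peak with a total of 28735 runs from 8242 to 10309 bases after the gene start, a range that includes this distance. The start of window 3 lies 32986 bases after that of the first window, and the peak after the RARA2 start begins at 33082. The builds were not matched, so whether a peak covers either window start was not tested. As background, 2.9% of the 758875 stretches of 2 kb on either side of a point, tiled over the chromosomes, overlapped a peak. In a small hg19 gene sample, the same stretch around 44 of 95 starts (46.3%) overlapped a peak. That sample holds 44 genes, so several starts can belong to the same gene and share a peak. PML and RARA2 thus had a peak within 2 kb, as 46.3% of the sampled starts did, and the first start of RARA had none.

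Signal in the RARA gene divided unevenly about the RARA2 start. Of the 48472 bases of the gene, the 32217 before it held 9 peaks with a summed signal of 146040, or 87.5% of the gene body signal. Of these 32217 bases, 44.8% lay in peaks. The strong pair lies in this part and alone held 62.7% of the gene body signal, so the split largely restates the place of that pair. The 16255 bases after the RARA2 start held 3 peaks with a sum of 20789 and 22.2% of the bases in peaks. The median total per peak was nearly equal, 6788 before and 6572 after, and the highest was 75785 before and 8026 after. Cut into 4 equal parts of 12118 bases, the gene had 60.0% of its signal in the second part, 15.1% in the third and 4.81% in the last. The last peak of the gene, at 38508430 to 38509754, stood 6763 bases from its neighbour and had a maximum of 21. In hg19, exon and intron borders were not used here, so these positions are distances from the starts and not assignments to introns. The break that joins RARA to PML also falls inside RARA, and its position in NB4 was not used.

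**Figure D2:**
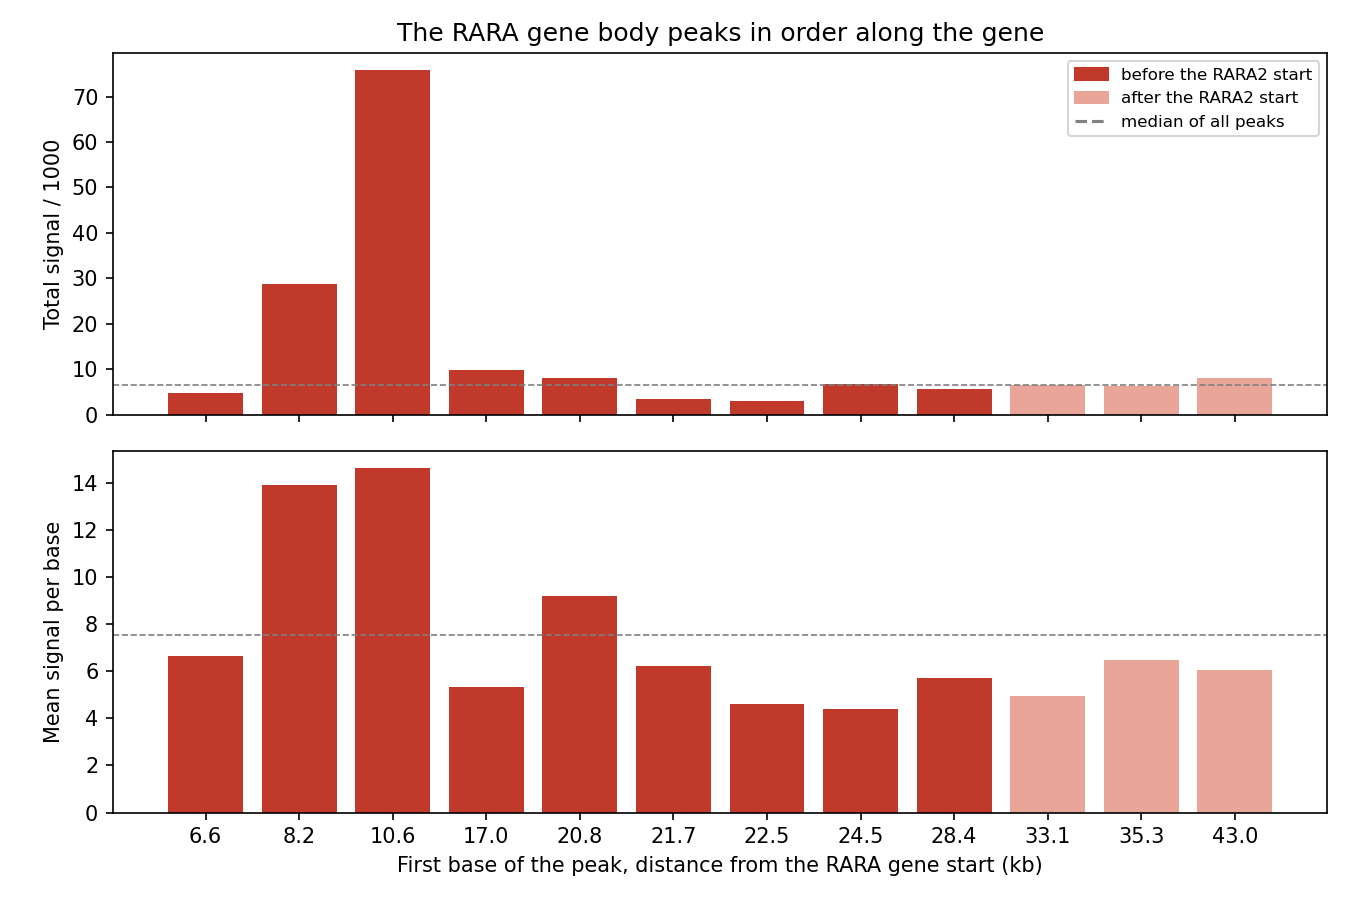
Total signal divided by 1000 (top) and mean signal per base (bottom) of the 12 peaks in the RARA gene body, in order along the gene and labelled by the distance of their first base from the gene start in kb. Dark bars lie before and pale bars after the RARA2 start, and dashed lines give the medians of all peaks. Totals of 28735 and 75785 stand out, and 9 of the 12 peaks lie below the median per base.

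The single peak of the RARA window outside the gene was tall and of near-median length. It lay at 38443705 to 38444639, 20784 bases before the gene start at its nearer end, and was 934 bp long with a total of 21515 and a maximum of 69. Its mean of 23.04 per base was the highest of the 15 members and at or above that of 95.3% of the list. It held 11.4% of the signal in the 13 peaks. CDC6, which encodes a factor that licenses origins of DNA replication, is the protein-coding gene before RARA in RefSeq order. The distance of the peak to that gene was not measured, and whether the peak belongs to CDC6 or to RARA was not tested. After RARA, toward the connexin gene GJD3 and the topoisomerase gene TOP2A, no peak was listed within 50 kb, and the next began 59851 bases past the gene end, at 38573746 to 38574526, with a total of 3849.

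The members differed in shape. The mean signal of a peak divided by its maximum is near 1 for a flat block and small for a sharp summit on a wide base, and its median over the list was 0.345. The strongest RARA peak had the lowest value of the members, 0.125, with a mean of 14.6 per base under a maximum of 117. The 3 neighbours at 38486183, 38487167 and 38487953 had 0.575, 0.567 and 0.510, and both PML peaks had 0.505 and 0.482, all above the upper quartile of 0.408. In total signal 8 of the 13 RARA peaks and 0 of the 2 PML peaks lay above the list median, and in length 9 of 13 and 0 of 2. In maximum signal 3 of 13 and 1 of 2 did.

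**Figure D3:**
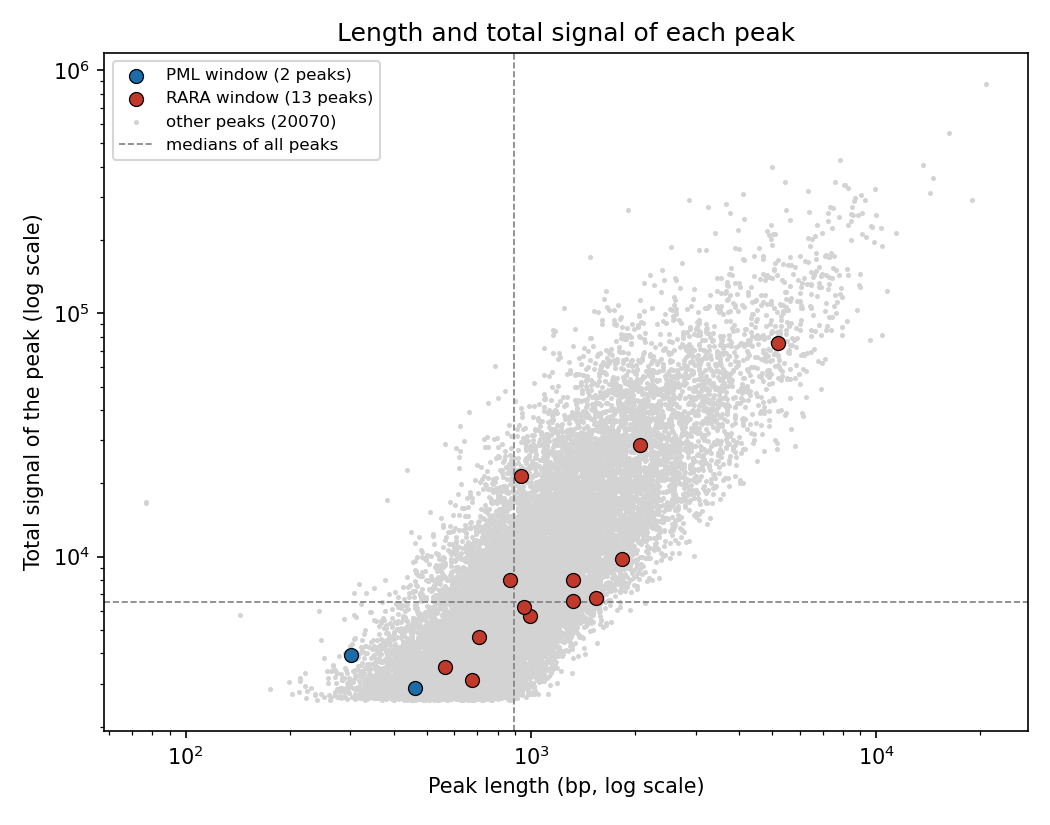
Length in bp against total signal of every listed peak, both on log scales, with the 2 PML peaks in blue, the 13 RARA peaks in red and the 20070 others in grey. Dashed lines are the list medians of 893 bp and 6479. The PML peaks lie at the short, low end, and the RARA peaks reach from 565 bp to 5185 bp, with 8 of the 13 above the median total.

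Set against the rest of the genome, the density of peaks at RARA was high and that at PML was moderate. The 148472 bases around RARA held 13 peaks, and 1.13% of 20438 windows of that size tiled over chromosomes 1 to 22 and X held as many or more. For the RARA gene body alone, with 12 peaks in 48472 bases, it was 0.0655% of 62632 windows, or 41 of them. The tiled windows lie on a fixed grid that can split a run of close peaks, while the gene body holds RARA's run whole. The share can therefore make RARA look rarer than it is, and 88 runs with gaps of at most 10 kb had at least 12 peaks. The 153141 bases around PML held 2 peaks, and 17.8% of 19819 windows of that size held at least as many, while 71.1% held none. The PML gene body had 1 peak, as at least 1 was found in 16.3% of 57127 windows. By summed signal the order was the same, with 1.49% of windows at or above RARA and 22.1% at or above PML. The tiled windows were not placed on genes, as these 2 are. In the small gene sample, 46.3% of 95 starts had a peak within 2 kb, against 2.9% of tiled stretches of that size. How far placement on a gene raises the count in windows of this size was not tested. Windows of the same chromosome at or above the count made up 2.01% for RARA and 19.6% for PML.

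**Figure D4:**
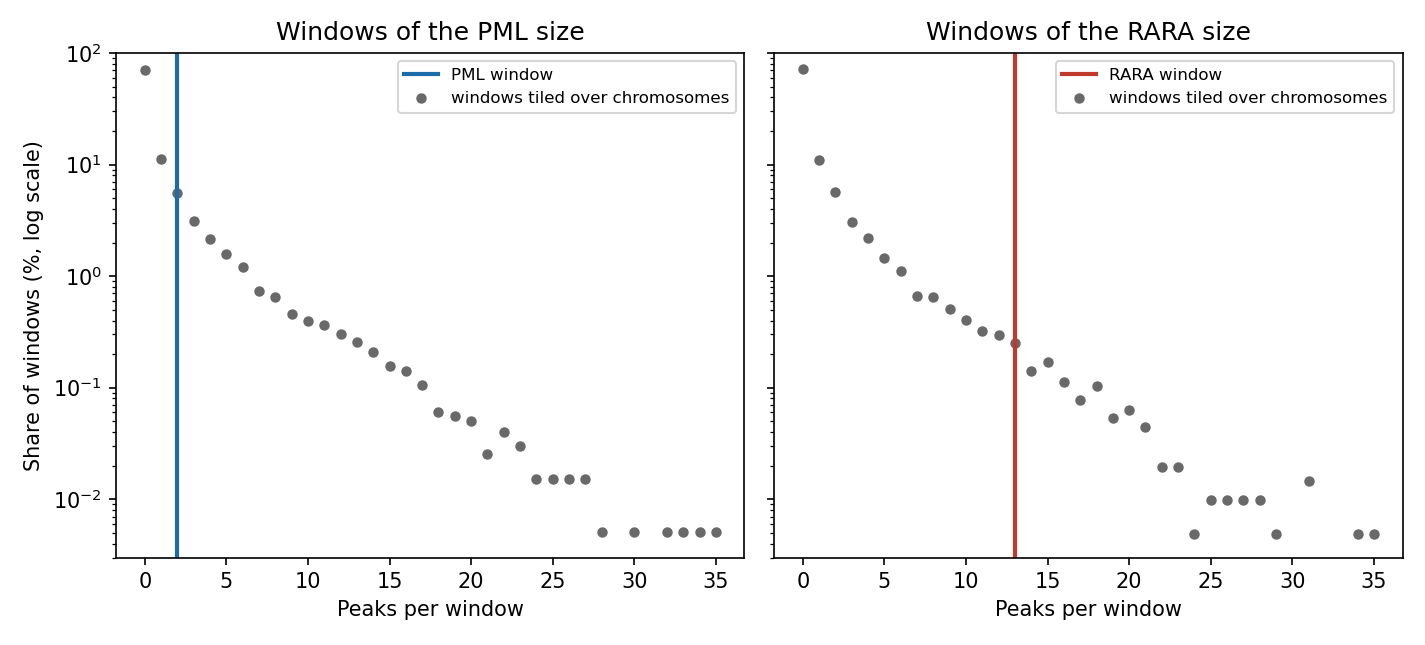
Share of tiled windows in percent, on a log scale, by the number of peaks they hold, for windows of the PML size (left) and of the RARA size (right). Coloured lines mark the PML window at 2 peaks and the RARA window at 13, and grey points are the tiled windows, of which 71.1% at the PML size and 71.5% at the RARA size held no peak.

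The 12 gene body peaks of RARA formed an unbroken run, from 38472055 to 38509754, when neighbours at most 10 kb apart were joined. Of 11236 such runs in the list, single peaks included, 88 had at least 12 peaks (0.783%) and 65 had more. Among the 23 runs of exactly 12 peaks, RARA's was among the weaker by signal. Its sum of 166829 compared with a median of 216695 and a range of 87777 to 522726, and 19 of the 23, RARA's included, had at least as much. Its span of 37699 bases compared with a median of 43891. The strongest peak held 45.4% of the run's signal, against a median of 42.8% and a range of 15.0% to 63.8%. At PML the run was the pair of peaks described above, and 3481 runs (31.0%) had at least 2. Its sum of 6833 lay near the low end of the 1746 runs of exactly 2 peaks, whose median was 16275, and 1618 of these had at least as much.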

How the data were processed

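Trimmomatic, Bowtie2, SAMtools, bedtools and SEACR, with hg19, appear in the submitters' processing notes, which as used here give no version, threshold, control, depth scaling or merging rule. The authors deposited a single peak list for both replicates, with a pair of signal columns. The values headed width lay above the peak's length in each of the 20085 peaks and never above length times the other column, so they were taken as total signal and those headed peak as maximum signal. Positions are printed as listed, and starts may count from 0.

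Gene bodies and the RARA2 start were taken as given for hg19. The members, the lists and the comparisons were chosen with earlier results of these data known. The rule for named genes takes both partners and their protein-coding neighbours. Neighbour names came from RefSeq on GRCh38. None of the 5 retinoid receptor and 10 PML nuclear body genes listed had an hg19 start here, so none is reported. Promoter sequences are RefSeq's, on GRCh38.p14; RARA was matched. Chromosome lengths came from GenomeInfoDb 1.38.1 and the sample of starts from GenomicFeatures 1.54.1. Windows were whole, adjacent and of equal size, and a peak counted in each window it touched. Window and run counting, in Python 3.11.15 with pandas 2.3.3, was tested on simulated data. No replicate spread or sampling interval could be given for single peaks.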

Additional observations from a re-analysis of the deposited data

How the results depend on the processing

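At PML the 2 peaks became 1 in the gene body alone, 6 with 100 kb on each side, 0 with total signal at or above the list median and 1 with maximum signal at or above it. Its summed signal of 6833 became 3953, 19417 and 0 under the first 3 of these. Peaks at its start numbered 2 within 5 kb and 0 at the stricter total signal, against 1. At RARA the 13 peaks became 8 at the stricter total signal, 3 at the stricter maximum and 8 after merging within 1 kb. Peaks at its 2 starts numbered 3 within 5 kb, against 1. The share of windows with as many peaks or more was 17.8% for PML. It became 61.5% among windows with a peak, 19.6% on the same chromosome, 22.1% by summed signal, 17.2% after merging within 1 kb and 100% at the stricter total signal, where PML has no peak. For RARA it was 1.13%, and these gave 3.97%, 2.01%, 1.49%, 2.21% and 0.876%. Merging in all windows was added after seeing the data. Of 38 alternatives, 15 left the value within 1.5 times, or within its 95% Wilson interval for a share, and 23 did not. That interval treats adjacent tiled windows as independent draws, which they are not, so it served only as a narrow cutoff and measures no uncertainty. By it, even 17.2% against 17.8% counted among the 23. RARA's summed signal was within 1.5 times under every alternative run for it. No paired analysis was possible because the list holds no value per replicate, and for the same reason neither replicate could be left out. The depth is unknown, and the lower total at PML, 2880, is close to the lowest listed, 2577.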

Other observations

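With the members included, RARA had more peaks than PML within each of 4 distances of the gene start, by the smallest ratio at the widest. Within 100 kb, RARA had 13 peaks and PML 3. The 13 at RARA were its members, with the same summed signal of 188344, and the 3 at PML included its 2 members. The counts are therefore not of the surroundings alone, and RARA's lead within 100 kb restates the member counts. Within 250 kb the counts were 33 and 7, within 500 kb 40 and 18, and within 1000 kb 60 and 53. The summed signal within 1000 kb was 710296 at RARA and 906960 at PML, so at that distance PML had more signal in fewer peaks. The median total per peak within 1000 kb was 6431 at RARA and 5292 at PML.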
